A study of Mus musculus with 6 samples.

Results

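Lipid droplet proteins and lipases were described in brown fat of cold-exposed and control mice. The 10 genes were taken by name, as droplet coat proteins (Plin1, Plin2, Plin4, Plin5 and Cidec) and as lipolysis genes (Pnpla2, Lipe, Mgll, Abhd5 and G0s2), out of 8129 genes with at least 1 read. Reads of each gene were summed over its transcripts and over the 2 flow cells on which a library was run. The tissue was interscapular brown fat, the heat-producing depot between the shoulder blades, from male wild type C57BL/6N mice aged 20 weeks. The 3 cold mice (numbers 4, 11 and 15) were housed alone at 4 °C for 24 h before dissection. For the 3 control mice (numbers 2, 9 and 14) the labels give only the general husbandry, at 22 to 24 °C on a 12 h light cycle with free access to food and water. Whether the controls were also housed alone is not given, so housing and temperature cannot be told apart. The text on cold housing stands on the records of all 6 mice, so that a mouse counts as cold or control by its title. Capped, full-length cDNA was made with the TeloPrime kit and sequenced on nanopore flow cells, so that 1 read stands for 1 amplified cDNA molecule assigned to 1 annotated transcript.

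Brown adipocytes hold their triglyceride in many small droplets. Perilipins coat the droplet and control access of lipases to it, and CIDE proteins exchange lipid between touching droplets. Lipolysis runs in sequence: adipose triglyceride lipase (Pnpla2) removes a fatty acid from triglyceride, hormone-sensitive lipase (Lipe) acts on the diglyceride, and monoglyceride lipase (Mgll) releases glycerol and the last fatty acid. Abhd5, also called CGI-58, activates the first enzyme and is held by Plin1 in the unstimulated cell, while G0s2 inhibits that enzyme. Noradrenaline released in the cold starts this sequence through beta-adrenergic receptors, cyclic AMP and protein kinase A, largely by phosphorylation of Plin1 and Lipe, which read counts do not measure.

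In the cold, 3 of the 10 genes rose: the coat genes Cidec (1.57-fold) and Plin5 (2.49-fold), and the lipase gene Mgll (1.39-fold). None fell among the 8 that had enough reads for a test. The other 5 tested genes, which include the upstream lipases Pnpla2 and Lipe, did not pass the test. Plin4 and Abhd5 had too few reads for it. A gene was called where edgeR's quasi-likelihood test gave a Benjamini-Hochberg adjusted p under 0.05 over all 2093 genes tested. Of those 2093 genes 33.2% were called, 18.1% as higher in the cold and 15.1% as lower, so that 3 of 8 is close to the background share. The cold libraries did not overlap the control libraries in 5 of the 8 tested genes, against 47.8% of all tested genes. In 4 of these 5 all cold libraries were above all control libraries, as in 26% of all tested genes. The median log2 change (cold minus control) of the 8 was 0.22, beside 0.04 over all tested genes. In bulk tissue a higher share of reads can come from more RNA per cell or from more cells of a type, which cannot be told apart here.

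**Figure D1:**
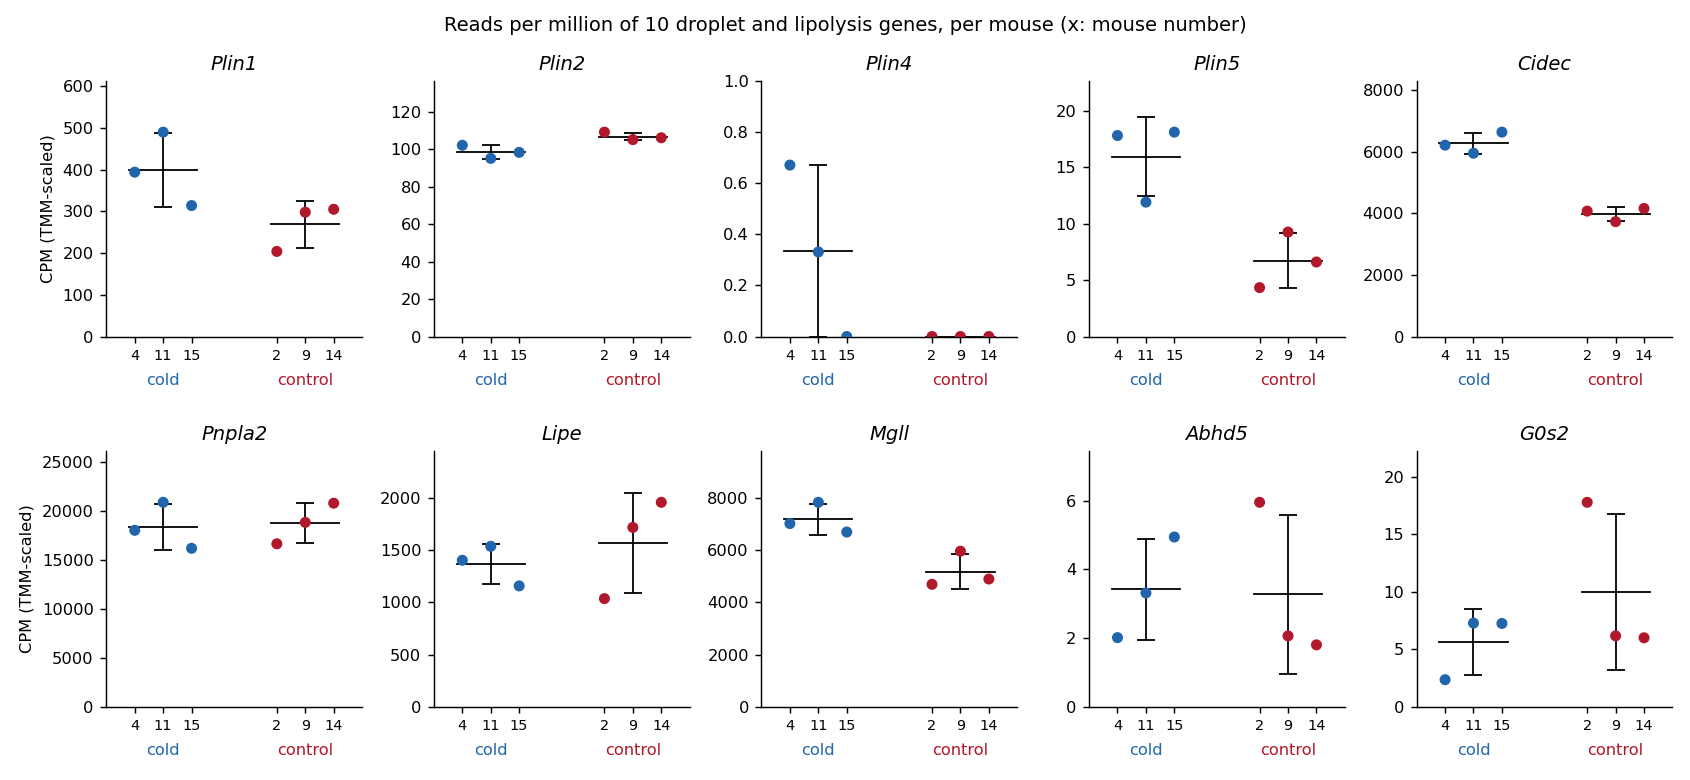
Level of each of the 10 genes in each mouse, in CPM (reads relative to the TMM-scaled library total; linear axes from 0, a separate axis per gene), cold mice at the left and control mice at the right of each panel. Points are single mice, bars are group means with their SD (n = 3 each). The cold points lie above all control points for Cidec, Plin5, Mgll and Plin1, and the groups overlap for Pnpla2, Lipe, Abhd5 and G0s2.

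The 6 libraries held 13457246 reads, with 2923005, 2982713 and 2951890 in cold mice 4, 11 and 15 and 1849431, 1014847 and 1735360 in control mice 2, 9 and 14. Every cold library was deeper than every control library, by up to 2.94 times, so genes with few reads are less well measured in controls. Levels are given as CPM, edgeR's scale of reads relative to the library total after TMM scaling. A floor of 3 reads equals 0.988 to 1.01 CPM in the cold libraries, and 1.62, 3.08 and 1.80 CPM in control mice 2, 9 and 14; floors cover counting error only, because the protocol names no molecular identifiers. Ucp1, the uncoupling protein of brown fat, stood at 4129 ± 45.0 CPM in cold and 4520 ± 335 CPM in control mice (SD, n = 3 each). The extraction text names an epididymal depot. Of 5 markers of epididymal fat and mesothelium (Wt1, Upk3b, Krt19, Msln and Lrrn4) none had a read. That absence cannot decide the depot, because the fibroblast markers Col1a1, Col3a1 and Pdgfra had no read either. The leptin gene had 1.03 CPM in control mouse 9 and no read in the other 5 libraries. Skeletal muscle markers (8 genes, all with reads) summed to 169, 2647 and 11831 CPM in cold mice 4, 11 and 15, against 109, 507 and 880 CPM in control mice 2, 9 and 14. Of the 5 muscle markers tested none was called.

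By reads, the order of the levels was Pnpla2, Mgll, Cidec, Lipe, Plin1 and Plin2 in both groups. In this paragraph levels are CPM, not divided by transcript length, because 1 read stands for 1 cDNA molecule. Pnpla2 averaged 18327 in cold and 18720 in control mice. Mgll averaged 7183 in cold and 5181 in control mice, and Cidec 6266 in cold and 3986 in control mice. Lipe followed with 1368 in cold and 1573 in control mice. Plin1 had 399 in cold and 269 in control mice, and Plin2 98.3 in cold and 107 in control mice. No 2 neighbours of these 6 overlapped in any group. Below them, Plin5, at 11.9 to 18.1, lay above G0s2, at 2.35 to 7.28, in cold mice. In control mice Plin5, at 4.33 to 9.25, overlapped both G0s2, at 6.00 to 17.8, and Abhd5, at 1.80 to 5.95. Pnpla2 alone held 57% of the reads of the 10 genes, and Pnpla2, Mgll and Cidec together held 94.1%. All 10 genes took 3.38, 3.72 and 3.20% of the reads in cold mice 4, 11 and 15, against 2.67, 2.94 and 3.09% in control mice 2, 9 and 14.

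Cidec, which drives the fusion-like growth of droplets in fat cells, had the smallest adjusted p of the 10 genes. It lies at chr6:113424634-113435760 on the minus strand of GRCm38. Its level was 6212, 5951 and 6635 CPM in cold mice 4, 11 and 15, against 4071, 3729 and 4157 CPM in control mice 2, 9 and 14. Every cold mouse lay above every control mouse, and the gap between the groups was larger than the spread within either. The means were 6266 ± 345 CPM in cold and 3986 ± 226 CPM in control mice (SD, n = 3 each), a log2 change of 0.65 ± 0.13 (SE), with a 95% interval of 1.29 to 1.92-fold and an edgeR adjusted p of 0.00313. The call held under each of 14 other settings (other scaling, filters, tools and flow cells, and each mouse left out), with log2 changes from 0.57 to 0.78. With cold mice 11 and 15, those with the most muscle reads, left out together, the log2 change was 0.69 and the edgeR adjusted p 0.111. Cidea, its close relative that marks brown fat, had 5689 ± 328 CPM in cold and 5376 ± 506 CPM in control mice (SD, n = 3 each) and was not called (log2 change 0.08 ± 0.13, edgeR adjusted p 0.667).

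Cidec has 2 annotated first exons about which the reads can be compared, each with its own coding start. Transcripts Cidec-201 and Cidec-202 begin at the upstream first exon (first base 113435760) and code for 717 bases, and Cidec-203 begins downstream (first base 113434764) and codes for 747. The downstream form carries 30 further coding bases in front of the shared start codon, shown here with the start codons in capitals because they tell the forms apart.
Cidec-203, downstream first exon: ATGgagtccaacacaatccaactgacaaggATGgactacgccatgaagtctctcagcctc
Cidec-202, upstream first exon: ATGgactacgccatgaagtctctcagcctc
The upstream first exon held 99.0, 99.1 and 98.1% of Cidec reads in cold mice 4, 11 and 15, against 97.6, 99.2 and 99.2% in control mice 2, 9 and 14. Nearly all reads of both groups were assigned to transcripts of the shorter coding form, and the groups overlapped. The downstream form held 1.22 ± 0.563% in cold and 1.28 ± 0.891% in control mice (SD, n = 3 each, exact two-sided permutation p = 1). Cidec-203 is annotated to end at 113425557, and Cidec-202 at 113424634, so no annotated transcript joins the downstream first exon to the long 3′ end, and the true share that starts downstream cannot be read from these counts. Both long transcripts rose: Cidec-201 averaged 1986 ± 51.3 CPM in cold and 1262 ± 62.1 CPM in control mice, and Cidec-202 4213 ± 179 CPM in cold and 2683 ± 152 CPM in control mice (SD, n = 3 each). The log2 change was 0.65 for each, with edgeR adjusted p of 0.00497 for Cidec-201 and 0.00378 for Cidec-202.

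Plin5, the perilipin of oxidative tissues that tethers droplets to mitochondria, had the largest fold change of the 3 called genes and the fewest reads. It lies at chr17:56111601-56117596 on the minus strand, next to Plin4. Its level was 17.8, 11.9 and 18.1 CPM in cold mice 4, 11 and 15, against 4.33, 9.25 and 6.60 CPM in control mice 2, 9 and 14. These values rest on 53, 36 and 55 reads in the cold mice and on 8, 9 and 11 reads in the control mice. The groups did not overlap, although the lowest cold value and the highest control value were close. The means were 15.9 ± 3.49 CPM in cold and 6.73 ± 2.46 CPM in control mice (SD, n = 3 each), a log2 change of 1.31 ± 0.34 (SE), with a 95% interval of 1.47 to 4.21-fold and an edgeR adjusted p of 0.0133. On flow cell 1 alone the log2 change was 0.83 with an edgeR adjusted p of 0.139, and on flow cell 2 alone 1.98 with 0.00679. Without cold mouse 4 it was 1.20 with an edgeR adjusted p of 0.0521. Muscle also makes Plin5, and its part in these levels was not tested. Muscle markers summed to 169, 2647 and 11831 CPM in cold mice 4, 11 and 15, where Plin5 had 17.8, 11.9 and 18.1 CPM. In control mice 2, 9 and 14 these markers summed to 109, 507 and 880 CPM, where Plin5 had 4.33, 9.25 and 6.60 CPM. With cold mice 11 and 15 left out together, the log2 change was 1.51 with an edgeR adjusted p of 0.0424. Of its 2 transcripts, which share a coding length of 1389 bases and differ in the first exon, Plin5-202 held 70.5 ± 9.74% of reads in cold and 66.5 ± 21.0% in control mice (SD, n = 3 each). Plin5-202 was called (log2 change 1.44, edgeR adjusted p 0.0156), but not on flow cell 1 alone and not without cold mouse 4 or control mouse 14. It had too few reads for a test on flow cell 2 alone, after thinning and at a minimum count of 30.

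Plin1, the main perilipin of fat cells, was higher in every cold mouse than in every control mouse but missed the threshold. It lies at chr7:79720218-79732903 on the minus strand. Its level was 394, 490 and 314 CPM in cold mice 4, 11 and 15, against 204, 298 and 305 CPM in control mice 2, 9 and 14. Cold mouse 15 exceeded control mouse 14 only narrowly. The means were 399 ± 88.1 CPM in cold and 269 ± 56.3 CPM in control mice (SD, n = 3 each), a log2 change of 0.57 ± 0.23 (SE) with an edgeR adjusted p of 0.0821. It passed the threshold where libraries were scaled by their totals alone (0.64, edgeR adjusted p 0.0489), without a count filter (0.70, edgeR adjusted p 0.0311, where 8.71% of all genes were called) and without cold mouse 15 (0.72, edgeR adjusted p 0.0398). It was smaller without control mouse 2 (0.39, edgeR adjusted p 0.173) and without cold mouse 11 (0.40, edgeR adjusted p 0.284), and with cold mice 11 and 15 left out together it was 0.60 with an edgeR adjusted p of 0.3. Of its 4 tested transcripts, Plin1-206, with the longest 3′ end, was called, at 238 ± 58.4 CPM in cold and 144 ± 34.3 CPM in control mice (SD, n = 3 each, log2 change 0.73, edgeR adjusted p 0.0409). That call was lost in 5 of 13 other settings, namely without cold mouse 4, cold mouse 11, control mouse 2 or control mouse 9 and on flow cell 2 alone, with edgeR adjusted p up to 0.183. Plin1-206 held 58.3, 60.5 and 59.2% of Plin1 reads in cold mice 4, 11 and 15, against 51.1, 52.8 and 55.4% in control mice 2, 9 and 14. Plin1-203, annotated with 3 exons and only 261 coding bases, held 20.8, 19.5 and 21.4% in the cold mice, against 25.7, 25.5 and 25.7% in the control mice. These shares did not overlap between groups, but the usage test over the whole gene gave an edgeR adjusted p of 1.

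Plin2, which coats droplets in most cell types, did not pass the test. It lies at chr4:86648386-86670060 on the minus strand. Its level was 102, 95 and 98.2 CPM in cold mice 4, 11 and 15, against 109, 105 and 106 CPM in control mice 2, 9 and 14. All cold mice lay slightly below all control mice, by an amount the fit could not separate from the spread it estimates across genes (98.3 ± 3.36 CPM in cold and 107 ± 2.28 CPM in control mice, SD, n = 3 each). The log2 change was −0.12 ± 0.19 (SE, edgeR adjusted p 0.651), and its 95% interval ran from 0.691 to 1.23-fold. The Plin2 transcripts share 259 bases at 96.1% identity with Gm12551, an annotated locus to which no read was assigned. Plin4, a perilipin of white fat at chr17:56100591-56109803, had 2 reads in cold mouse 4, 1 read in cold mouse 11 and none in the other 4 libraries. With no control read, levels of up to 1.62, 3.08 and 1.80 CPM in control mice 2, 9 and 14 remain possible. The difference was not detectable at this depth. Plin3, a perilipin found widely, had 11.5 ± 4.31 CPM in cold and 10.6 ± 5.32 CPM in control mice (SD, n = 3 each, log2 change 0.21, edgeR adjusted p 0.740).

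Pnpla2, with the most reads of the 10 genes, did not pass the test. It lies at chr7:141455198-141460743 on the plus strand. Its level was 17986, 20843 and 16151 CPM in cold mice 4, 11 and 15, against 16612, 18796 and 20752 CPM in control mice 2, 9 and 14. The groups overlapped throughout. The means were 18327 ± 2365 CPM in cold and 18720 ± 2071 CPM in control mice (SD, n = 3 each), a log2 change of −0.03 ± 0.14 (SE, edgeR adjusted p 0.883). The 95% interval of the fold change ran from 0.790 to 1.21. The sign of so small a value turned in 4 of the alternatives, with log2 changes up to 0.10.

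Most Pnpla2 reads were assigned to a transcript annotated for nonsense-mediated decay, in which an inserted exon ends the coding sequence early. The 82-base exon at chr7:141456568-141456649 lies between the first exon and the next one. In Pnpla2-201 it brings an in-frame stop after 210 coding bases, whereas Pnpla2-203, which skips it, codes for 1458 bases. Both junctions are shown from 24 bases before the end of the first exon, with the early stop codon in capitals.
Pnpla2-201, exon included: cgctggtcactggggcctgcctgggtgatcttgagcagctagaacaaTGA
Pnpla2-203, exon skipped: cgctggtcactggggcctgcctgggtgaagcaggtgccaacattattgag
Transcripts with the exon held 58.0, 58.4 and 58.1% of Pnpla2 reads in cold mice 4, 11 and 15, against 58.7, 58.4 and 58.8% in control mice 2, 9 and 14. The share was nearly the same in all 6 libraries (58.2 ± 0.234% in cold and 58.6 ± 0.193% in control mice, SD, n = 3 each, exact two-sided permutation p = 0.2). By transcript, Pnpla2-201 averaged 10536 ± 1546 CPM in cold and 10832 ± 1208 CPM in control mice, and Pnpla2-203 7569 ± 1065 CPM in cold and 7649 ± 852 CPM in control mice (SD, n = 3 each). Neither was called. The annotation ends Pnpla2-201 at 141460092 and Pnpla2-203 at 141460743, and no annotated transcript has the full set of coding exons with the shorter 3′ end. Inclusion of the exon and use of the shorter 3′ end cannot therefore be told apart in counts per transcript, and the share above is that of the assigned transcripts.

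The regulators of Pnpla2 were rare at the RNA level. G0s2, its inhibitor, at chr1:193272161-193273217 on the minus strand, had 2.35, 7.28 and 7.25 CPM in cold mice 4, 11 and 15, against 17.8, 6.17 and 6.00 CPM in control mice 2, 9 and 14. Control mouse 2 stood high, and the other 5 libraries lay between 2.35 and 7.28 CPM. The log2 change of −0.89 ± 0.52 (SE) was not called (edgeR adjusted p 0.212, 95% interval 0.243 to 1.19-fold), and it was −0.12 at its smallest when 1 mouse was left out. With cold mice 11 and 15 left out together it was −2.09 with an edgeR adjusted p of 0.0492. Abhd5, its activator, at chr9:122351608-122381524 on the plus strand, had 2.01, 3.31 and 4.94 CPM in cold mice 4, 11 and 15, against 5.95, 2.06 and 1.80 CPM in control mice 2, 9 and 14. It had 47 reads in all, too few to pass the count filter, and its groups overlapped.

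Lipe, which codes for hormone-sensitive lipase at chr7:25379527-25398710 on the minus strand, did not pass the test. Its level was 1405, 1539 and 1159 CPM in cold mice 4, 11 and 15, against 1037, 1720 and 1961 CPM in control mice 2, 9 and 14. Control mouse 2 was the lowest of all 6 and control mouse 14 the highest. The means were 1368 ± 193 CPM in cold and 1573 ± 480 CPM in control mice (SD, n = 3 each), a log2 change of −0.20 ± 0.23 (SE, edgeR adjusted p 0.526). Without control mouse 2 the log2 change was −0.44 with an edgeR adjusted p of 0.0462. Tested Lipe transcripts begin at 4 first exons. That of Lipe-202 held 79.6 ± 0.938% of reads in cold and 78.7 ± 1.23% in control mice (SD, n = 3 each). The first exon of Lipe-201, which adds coding sequence to give 2406 against 2277 bases, held 14.1, 12.9 and 12.9% in cold mice 4, 11 and 15, against 17.1, 14.4 and 14.5% in control mice 2, 9 and 14. The first exon of Lipe-208, the most downstream of the 4, held 5.97, 5.59 and 6.91% in the cold mice, against 4.38, 4.96 and 5.02% in the control mice. Lipe-204, with the longest coding sequence of 3216 bases, held 0.916 ± 0.0375% in cold and 1.13 ± 0.0657% in control mice (SD, n = 3 each). The shares of Lipe-201, Lipe-204 and Lipe-208 did not overlap between groups, each with an exact two-sided permutation p of 0.1, the smallest that 3 against 3 libraries allow, and 0.569 after adjustment over the 37 transcript features compared.

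Mgll, the last enzyme of the sequence, at chr6:88724412-88828360 on the plus strand, rose. Its level was 7019, 7834 and 6695 CPM in cold mice 4, 11 and 15, against 4690, 5960 and 4893 CPM in control mice 2, 9 and 14. Every cold mouse lay above every control mouse. The means were 7183 ± 587 CPM in cold and 5181 ± 682 CPM in control mice (SD, n = 3 each), a log2 change of 0.47 ± 0.14 (SE), with a 95% interval of 1.11 to 1.73-fold and an edgeR adjusted p of 0.0272. The call was lost with DESeq2 (0.42, DESeq2 adjusted p 0.0826), and in edgeR without cold mouse 4 (0.47, adjusted p 0.0931), cold mouse 11 (0.41, adjusted p 0.109) or control mouse 14 (0.41, adjusted p 0.0928). With cold mice 11 and 15 left out together it was 0.49 with an edgeR adjusted p of 0.283.

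Mgll-204 held 89.6 ± 1.14% of Mgll reads in cold and 91.0 ± 0.853% in control mice (SD, n = 3 each). It rose to 6455 ± 664 CPM in cold, against 4729 ± 633 CPM in control mice (log2 change 0.45, edgeR adjusted p 0.0379). Mgll-201 and Mgll-207, which start from a first exon downstream of that of Mgll-204, rose too. Mgll-207 averaged 228 ± 14.4 CPM in cold and 128 ± 29.2 CPM in control mice (SD, n = 3 each, log2 change 0.84, edgeR adjusted p 0.0107), and Mgll-201 averaged 211 ± 2.04 CPM in cold and 126 ± 23.3 CPM in control mice (log2 change 0.75, edgeR adjusted p 0.0150). The transcripts that begin at the downstream first exon together held 6.08, 5.83 and 6.81% of Mgll reads in cold mice 4, 11 and 15, against 5.01, 5.29 and 4.59% in control mice 2, 9 and 14. These groups did not overlap (exact two-sided permutation p = 0.1, adjusted 0.569). Mgll-202 carries an 84-base exon at chr6:88813880-88813963 that adds in-frame coding sequence, shown because it lengthens the coding sequence.
Mgll-202, inserted exon: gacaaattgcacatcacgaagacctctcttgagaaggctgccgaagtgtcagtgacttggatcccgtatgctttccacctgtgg
The exon was present in 3.24, 3.28 and 4.03% of Mgll reads in cold mice 4, 11 and 15, against 3.28, 3.35 and 2.89% in control mice 2, 9 and 14, and these overlapped. Mgll-202 itself was called, at 251 ± 19.9 CPM in cold and 165 ± 31.5 CPM in control mice (SD, n = 3 each, log2 change 0.61, edgeR adjusted p 0.0390), but the call was lost in 7 of 13 other settings, with edgeR adjusted p up to 0.133. These were flow cell 2 alone, thinning, and each mouse left out except control mouse 9. The call of Mgll-204 was lost in 4 of the 13, without cold mouse 4, cold mouse 11 or control mouse 14 and with DESeq2, and that of Mgll-201 in 2, without cold mouse 4 or control mouse 14. Those of Mgll-207 and of both long Cidec transcripts held in all 13.

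**Figure D2:**
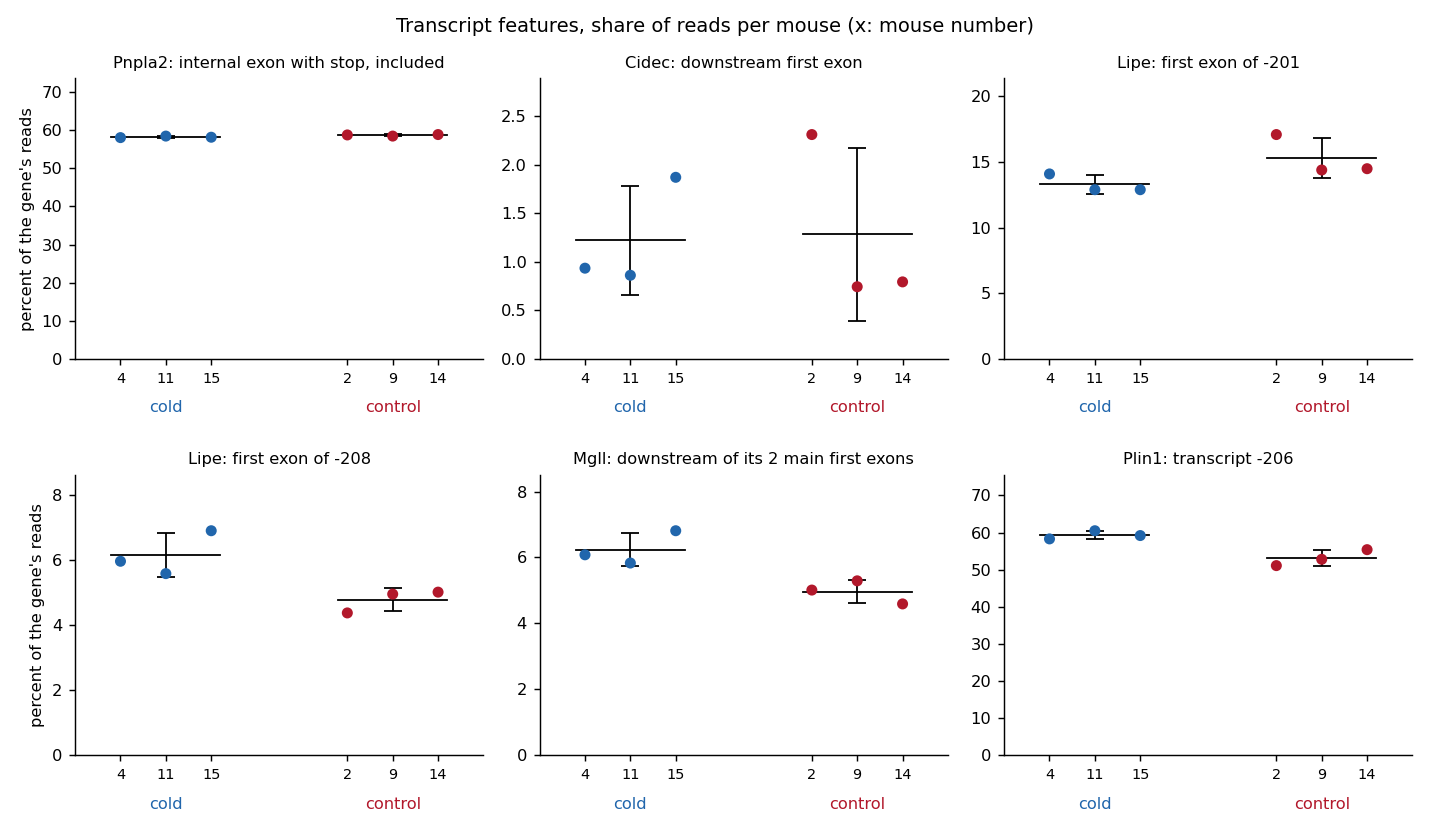
Share of a gene's reads with a given exon or transcript in each mouse (percent, linear axes from 0), cold mice at the left and control mice at the right. Points are single mice, bars are group means with their SD (n = 3 each). The Pnpla2 exon share lies between 58.0 and 58.8% in all 6 mice, and the groups do not overlap for both Lipe first exons drawn, the downstream Mgll first exon and Plin1-206.

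The 10 genes have 57 annotated transcripts, of which 45 had a read and 25 were tested. Of these 25, 8 were called and all 8 were higher in the cold, namely Cidec-201, Cidec-202, Mgll-201, Mgll-202, Mgll-204, Mgll-207, Plin1-206 and Plin5-202. Among all 2787 transcripts tested 32.7% were called, 17.4% as higher. Whether the share of each transcript within its gene changed was tested with diffSpliceDGE of edgeR in the 5 genes with at least 2 tested transcripts (Cidec, Lipe, Mgll, Plin1 and Pnpla2). None was called, and none had an unadjusted p under 0.05, where 1.67% of the 539 genes in that test were called and 4.82% had an unadjusted p under 0.05. The other 17 tested transcripts had log2 changes between −0.90 (G0s2-201) and 0.67 (Mgll-209). They include Pnpla2-202 at 0.00, Pnpla2-204 at −0.08, Plin1-201 at 0.57, Plin1-202 at 0.38, Plin2-201 at −0.12, Mgll-203 at 0.11 and Mgll-206 at 0.24. The shares of 7 of the 22 transcripts in the usage test did not overlap between groups, against 19.7% of all transcripts in the test.

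**Figure D3:**
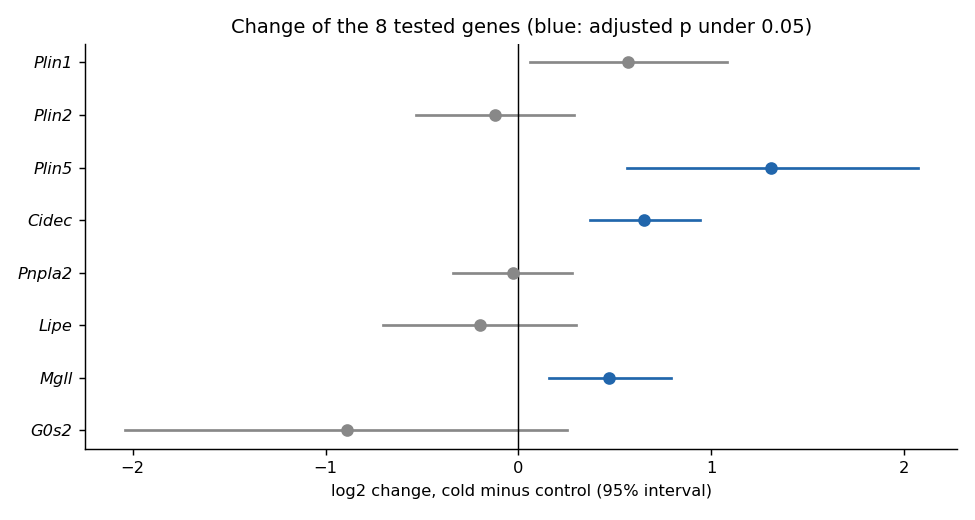
Log2 change of the 8 tested genes (cold minus control) with its 95% interval from edgeR, on a linear axis, with called genes in blue and the others in grey. Plin5 has the widest interval of the called genes, from 0.56 to 2.07, and Pnpla2 lies at −0.03.

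Ratios of reads between 2 genes of the same library need no scaling between libraries. Of 8 ratios planned 7 could be formed, since Plin4 had libraries without a read. Cidec to Cidea was 1.03, 1.05 and 1.24 in cold mice 4, 11 and 15, against 0.741, 0.773 and 0.715 in control mice 2, 9 and 14, so that Cidec passed Cidea in reads in every cold mouse and in no control mouse. Mgll to Lipe was 5.00, 5.09 and 5.78 in the cold mice, against 4.52, 3.46 and 2.49 in the control mice. Plin2 to Plin1 was 0.258, 0.194 and 0.313 in the cold mice, against 0.534, 0.352 and 0.348 in the control mice. These 3 ratios did not overlap between groups, and each had an exact two-sided permutation p of 0.1 (adjusted 0.233), the smallest that the design allows. The other 4 overlapped: Plin5 to Plin1 differed by 0.72 on the log2 scale (exact permutation p = 0.2), Pnpla2 to G0s2 by 0.77 (exact permutation p = 0.6), Abhd5 to Plin1 by −0.37 (exact permutation p = 0.6) and Pnpla2 to Lipe by 0.13 (exact permutation p = 0.5). Without control mouse 2, Pnpla2 to G0s2 differed by 0.17 and Abhd5 to Plin1 by 0.36, the opposite sign. How often ratios of other gene pairs would fail to overlap was not tested. Among single tested genes the groups did not overlap in 47.8%.

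The genes around this pathway are given by list. Over all tested genes 18.1% were called as higher in the cold and 15.1% as lower. Whether any list departed from these shares was not tested. Of 27 other droplet genes 20 had reads, 7 were tested and 2 rose (median log2 change of the tested genes 0.21, beside 0.04 over all genes). Rab7, a GTPase of late endosomes found on droplets, averaged 341 ± 33.0 CPM in cold and 211 ± 37.3 CPM in control mice (log2 change 0.69, edgeR adjusted p 0.0234), and Aifm2, a droplet-bound oxidoreductase, 17.2 ± 1.67 CPM in cold and 9.11 ± 1.02 CPM in control mice (log2 change 0.93, edgeR adjusted p 0.0194; SD, n = 3 each). A list of 20 names held mostly other hydrolases and genes that carry fatty acids or glycerol away. Of these 20 names, 12 were tested, 4 rose and 2 fell (median 0.18). Gpr81 and Hcar1 on that list are names of the same receptor gene, which was not tested. Lipa, the lysosomal acid lipase, reached 12.0 ± 3.05 CPM in cold, against 4.39 ± 0.414 CPM in control mice, and Acsl1, which activates fatty acids, 81.1 ± 4.65 CPM in cold, against 43.8 ± 9.74 CPM in control mice. Pnpla3, a droplet protein related to Pnpla2, fell to 6.31 ± 1.19 CPM in cold, against 69.0 ± 38.1 CPM in control mice (log2 change −3.41, edgeR adjusted p 0.000143). Fabp5, a fatty acid carrier, fell to 1079 ± 297 CPM in cold, against 5141 ± 977 CPM in control mice (SD, n = 3 each, log2 change −2.25). The other 2 that rose were Aqp7, the glycerol channel of fat cells (log2 change 1.10, edgeR adjusted p 0.0386), and Acot2, a mitochondrial thioesterase (log2 change 0.80, edgeR adjusted p 0.0328).

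Of 26 genes listed around the beta-adrenergic signal, which starts lipolysis, 10 were tested and 2 rose (median 0.15). The list also holds genes that act against that signal, among them phosphodiesterases, phosphatases and insulin signalling genes such as Akt2. Its median therefore mixes both kinds. Adcy3, an adenylyl cyclase, averaged 135 ± 26.2 CPM in cold and 5.03 ± 2.82 CPM in control mice (log2 change 4.76, edgeR adjusted p 1.7e-05), and Prkar1a, a regulatory subunit of protein kinase A, 7.08 ± 0.446 CPM in cold and 1.82 ± 1.23 CPM in control mice (SD, n = 3 each, log2 change 1.81), with control mice 9 and 14 under the 3-read floor. The beta-3 receptor gene Adrb3 had 9.73, 11.9 and 12.2 CPM in cold mice 4, 11 and 15, against 14.6, 18.5 and 15.6 CPM in control mice 2, 9 and 14, and was not called (log2 change −0.50, edgeR adjusted p 0.153). Of 15 adipocyte regulators 7 were tested and none was called (median 0.07), Pparg among them at 5.31 ± 1.50 CPM in cold and 5.58 ± 3.34 CPM in control mice (edgeR adjusted p 0.925). Among general adipocyte markers, Lpl, which frees fatty acids from lipoproteins at the vessel wall, averaged 17887 ± 1486 CPM in cold and 4637 ± 1248 CPM in control mice (log2 change 1.95), and Cd36, which takes them up, 708 ± 99.9 CPM in cold and 344 ± 61.2 CPM in control mice (log2 change 1.04). Adipoq, the adiponectin gene, fell to 1043 ± 103 CPM in cold, against 1914 ± 248 CPM in control mice (log2 change −0.88, edgeR adjusted p 0.00220), and Car3, a carbonic anhydrase, fell with a log2 change of −4.04.

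**Figure D4:**
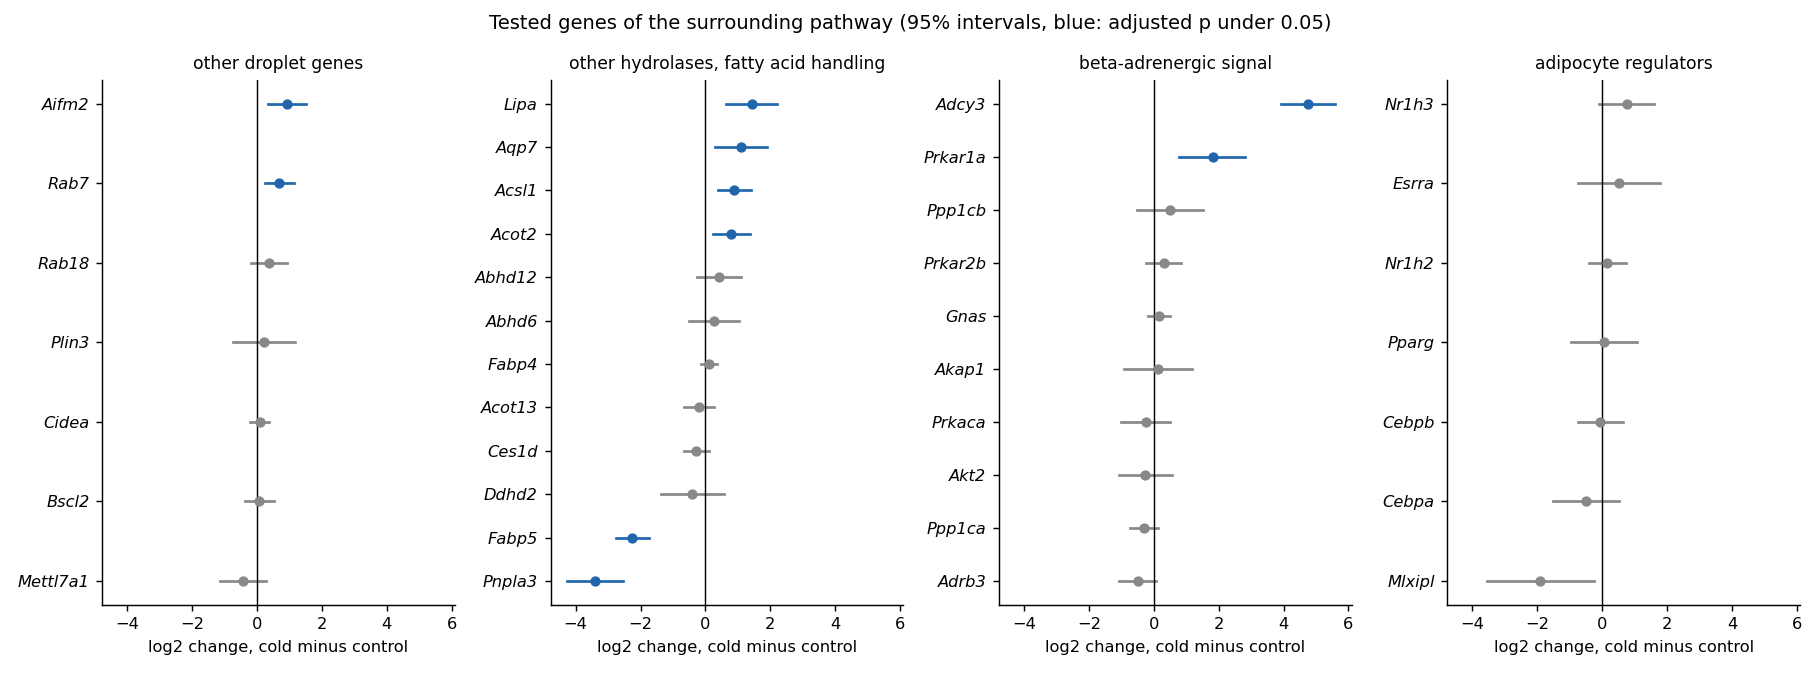
Log2 change (cold minus control) with its 95% interval for each tested gene of 4 surrounding gene groups, called genes in blue and the others in grey, on 1 shared linear axis. Adcy3 lies highest at 4.76 and Pnpla3 lowest at −3.41, while no adipocyte regulator was called.

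Markers of other cells were measured beside these genes, and their part in the results was not tested. White adipocyte markers (5 of 7 with reads) summed to 167 to 256 CPM in cold and 66.5 to 119 CPM in control mice, nearly all of it Retn, which rose (log2 change 1.07, edgeR adjusted p 0.0121). Of the 10 brown adipocyte markers 8 were tested, of which Elovl3 (log2 change 3.69), Kcnk3 (1.35) and Letmd1 (0.77) rose and Cox8b (−0.98) and S100b (−0.69) fell. Macrophage markers summed to 51.3 to 117 CPM in cold and 53.4 to 86.3 CPM in control mice, with Adgre1, Cd68 and Csf1r at 0. Endothelial markers summed to 8.89 to 14.1 CPM in cold and 11.9 to 15.4 CPM in control mice, and fibroblast markers to 11.1 to 22.1 CPM in cold and 7.19 to 17.8 CPM in control mice, with Col1a1, Col3a1 and Pdgfra at 0. Globin and other erythroid genes summed to 16327 to 22521 CPM in cold and 14978 to 28132 CPM in control mice.

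The genes whose levels followed each called gene most closely over the 6 libraries are given as a description, with Pearson's r of log2 CPM. All those given were themselves called, so that their shared difference between cold and control enters the r. For Cidec they were H2afz (0.999), Fam162a (0.996) and BC028528 (0.995). For Mgll they were Srsf6 (0.998), Wdr83os (0.975) and Sirt3 (0.973), and for Plin5 they were Ahsa1 (0.980) and Calr (0.978).

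Sequence upstream of the transcription start was available for all 10 genes, as 14 windows of 250 bases from RefSeq (GRCm38.p6). The windows shown are at the main start of the 3 genes with most reads (Cidec, Mgll and Pnpla2) and at the downstream Cidec start. They are given 5′ to 3′ on the gene's strand with matches to the searched motifs in capitals.
Cidec, upstream start, chr6:113435761-113436010, minus strand: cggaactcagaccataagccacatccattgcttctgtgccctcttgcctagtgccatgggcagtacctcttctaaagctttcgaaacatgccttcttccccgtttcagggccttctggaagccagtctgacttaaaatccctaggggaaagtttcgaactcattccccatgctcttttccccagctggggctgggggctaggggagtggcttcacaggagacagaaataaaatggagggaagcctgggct
Cidec, downstream start, chr6:113434765-113435014, minus strand: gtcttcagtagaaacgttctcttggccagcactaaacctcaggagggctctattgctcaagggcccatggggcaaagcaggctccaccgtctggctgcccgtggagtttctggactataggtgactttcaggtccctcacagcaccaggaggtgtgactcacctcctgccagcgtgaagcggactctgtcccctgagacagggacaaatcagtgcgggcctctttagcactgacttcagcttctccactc
Mgll, chr6:88724162-88724411, plus strand: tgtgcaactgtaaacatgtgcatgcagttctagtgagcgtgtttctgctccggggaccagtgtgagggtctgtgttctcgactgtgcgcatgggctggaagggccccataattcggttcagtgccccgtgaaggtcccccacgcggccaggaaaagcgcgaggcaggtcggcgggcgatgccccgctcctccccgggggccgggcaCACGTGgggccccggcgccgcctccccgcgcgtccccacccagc
Pnpla2, chr7:141454938-141455187, plus strand: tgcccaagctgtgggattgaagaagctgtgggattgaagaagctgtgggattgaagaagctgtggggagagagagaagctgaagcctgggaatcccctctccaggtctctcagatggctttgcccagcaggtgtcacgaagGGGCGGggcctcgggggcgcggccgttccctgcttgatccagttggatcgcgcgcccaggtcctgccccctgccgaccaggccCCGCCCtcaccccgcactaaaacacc
The 6 motifs were searched on both strands, and matches could overlap. The E-box CACGTG, bound by USF factors, was found in the Mgll window 44 bases before the start, in 2 of the 14 windows and in 6.02% of the 32841 windows of all genes. The GC box GGGCGG lies 109 and, on the other strand, 26 bases before the Pnpla2 start, and was in 7 of the 14 windows and in 32.7% of all windows. The nuclear receptor half-site AGGTCA was in 3 of the 14 windows (Abhd5, Plin2 and Plin5; 14% of all), the cyclic AMP half-site TGACG in 2 (Abhd5 and G0s2; 17.8% of all), CCAAT in 3 (33.9% of all) and TATAAA in none (12.4% of all). Neither Cidec window held any of the 6. A match describes letters in a window and not a bound site.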

How the data were processed

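Reads per transcript were deposited for 6 libraries on 2 flow cells each, as raw counts without normalization. The submitters' processing notes name minimap2 and GRCm38; how reads that fit several transcripts were assigned is not stated there. Per the labels, RNA was poly(A)-selected and amplified over 27 PCR cycles. The extraction text names epididymal fat, while the tissue label gives brown fat and was used. The members and gene lists were chosen with earlier results of these data known.

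Transcript identifiers were joined to genes by GENCODE M21 without version (14671 of 14693). The 22 unmatched identifiers, with up to 0.00433% of reads, were left out. Counts were summed over flow cells and transcripts; transcripts not listed were taken as 0. Genes and transcripts were tested in edgeR 4.0.16 (R 4.3.3) with filterByExpr at a minimum count of 10, TMM scaling and the robust quasi-likelihood F test, adjusted by Benjamini-Hochberg at 0.05. SE was worked back from the F statistic. The p-values of edgeR rest on the spread between these mice and on a spread estimated across genes. Binomial p-values of the flow cells measure counting error within a library. Mouse numbers are not shared between groups, so no block was fitted. The fits were tested on simulated data. Shares and ratios were compared by exact permutation (scipy 1.17.1), and near-identical copies were sought with blastn 2.17.0 at 95% identity over 200 bases. Alternatives were DESeq2 1.42.0, scaling by totals, other count minimums, protein-coding transcripts only, each flow cell, thinning, and each mouse left out.

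Named were all 10 members, 6 comparison genes (Plin3, Cidea, Ucp1, Adipoq, Adrb3 and Pparg), up to 4 called genes of each list with the smallest p, the 3 genes of at least 32 CPM most like each called member (1 of these is not reported here), and every tested transcript of a member. Other markers named were chosen after their values were seen.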

Additional observations from a re-analysis of the deposited data

How the results depend on the processing

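No paired analysis was possible because the mouse numbers are not shared between cold and control mice. Of 2093 genes, 695 were called, 498 to 687 with 1 mouse left out, and 551 to 708 under the other settings. With cold mice 11 and 15 left out together, chosen after seeing the data and with the lone cold mouse assumed to vary like the controls, 321 were called, of which 311 were among the 695. Of the 10 genes 3 were called, 1 to 4 with 1 mouse left out; the 1, without cold mouse 4, was Cidec. Called transcripts of these genes numbered 8, 3 to 7 with 1 mouse left out. Called transcripts in all were 912, 611 to 862 with 1 mouse left out. Transcript usage was called in none of the 10 genes under any alternative run. Of the 7 ratios 3 did not overlap between groups, 3 to 4 with 1 mouse left out, 2 on flow cell 1 alone and 5 on flow cell 2 alone. Plin5 to Plin1 differed by 0.72 on the log2 scale, by 0.26 on flow cell 1 alone, by 1.48 on flow cell 2 alone, by 0.45 to 1.08 with 1 mouse left out and by 1.58 after thinning to the smallest library; the cause was not tested. With 1 mouse left out, Abhd5 to Plin1 differed by −0.85 to 0.36 and Pnpla2 to G0s2 by 0.17 to 1.13. Pnpla2 turned from −0.03 to 0.04 with totals alone, 0.10 without a count filter, 0.06 without cold mouse 15 and 0.02 without control mouse 14, and Plin2 from −0.12 to 0.00 without a count filter. The median log2 change of all genes was 0.04, 0.11 with totals alone and 0.30 without a count filter, so Cidec, at 0.78 without a filter, lay above that median in each case. No difference beyond counting error between the 2 flow cells was found in the 56 pairs of gene and library (exact binomial tests, smallest adjusted p 0.943, and 2 had an unadjusted p under 0.05). Where a pair held few reads, as for Plin5 in the control mice, the test could hardly detect a difference. Depth limits Plin4, Abhd5, G0s2 and Plin5, whose control libraries held at most 33 reads of any of them.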
